A study of Mus musculus with 28 samples.

Results

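The nuclear-encoded genes of the mitochondrial respiratory chain were taken by symbol from the deposited expression table, as rows named Nduf, Sdh, Uqcr, Cox4 to Cox8 or Atp5 with a subunit letter or number and no joined gene names. This rule found 79 of the 23015 genes kept. Of these, 36 are named for complex I, 4 for complex II, 8 for complex III, 15 for complex IV and 16 for the ATP synthase (complex V). The rule used names only and no measured value. Each gene is counted below in the complex it is named for, and where its protein sits was not checked.

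The RNA came from 14 cell populations, each with 2 libraries (28 in all), sorted out of the back skin of mice on day 5 after birth. The mice had a mixed background of the FVB/N, C57BI/6J and CD1 strains, as the labels spell them. In mice with Lef1-RFP and K14-H2BGFP, a nuclear reporter driven by a keratin promoter of basal keratinocytes, 8 populations were taken. Mc, labelled melanocytes, were Lef1-RFP+ and CD117+. TAC, labelled as matrix progenitors expressing Shh, were K14-H2BGFP low and Lef1-RFP+, Mx (matrix) were K14-H2BGFP low, ORS (outer root sheath) were K14-H2BGFP high, and Epi (epidermis) were the K14-H2BGFP+ cells of the epidermal preparation. DP (dermal papilla) were Lef1-RFP+ with high ITGA9, DF (dermal fibroblasts) were Lef1-RFP+ without CD117 or ITGA9, and Neg was a mixture of negative cells. A Sox2-GFP line with Lef1-RFP gave G/AA-DP (guard, awl and auchene papillae, Sox2-GFP+) and ZZ-DP (zigzag papillae, Sox2-GFP-), both with high ITGA9. A Crabp1-GFP line with Lef1-RFP gave G-DP (guard papillae, Crabp1-GFP-) and AA/ZZ-DP (awl, auchene and zigzag papillae, Crabp1-GFP+). HF-SC (precursors of bulge stem cells, Sox9-GFP+) and HF-ORS (the remaining sheath, Sox9-GFP-) were both high for K14-RFP and ITGA6. The labels do not say whether the 2 libraries of a population came from different animals or pools, so p-values measure only the spread between these libraries. TAC shares its K14-H2BGFP gate with Mx, and the labels do not say that Mx lacked Lef1-RFP+ cells.

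The respiratory chain lies in the inner mitochondrial membrane. Complex I oxidises NADH, complex II oxidises succinate and is also an enzyme of the citric acid cycle, complex III passes electrons to cytochrome c, and complex IV passes them to oxygen. The ATP synthase uses the resulting proton gradient to make ATP. Most subunits are encoded in the nucleus, the core of several complexes being encoded in mitochondrial DNA, and a few nuclear subunits have isoforms restricted to tissues such as muscle or testis.

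Values are FPKM (fragments scaled to transcript length and library size), so levels of different genes can be set side by side. Sums over a library lay between 285981 and 515224 FPKM, upper quartiles between 10.3 and 11.1 FPKM, and 10951 to 12497 genes had at least 1 FPKM. Upper quartiles were nearly equal while sums differed, and whether the table was scaled between libraries before deposit is not given in the sources used here. Read depth is unknown. Most marker lists followed the gates: 9 melanocyte genes, among them Kit, which encodes the CD117 of the gate, summed to 14282 to 16962 FPKM in Mc. The sums were 1940 to 2847 FPKM in DP against 440.1 to 655.2 FPKM in DF for 8 papilla genes, and 18931 to 26643 FPKM in Epi for 7 keratinocyte genes. The 8 fibroblast genes did not separate DF from DP, at 2652 to 6043 FPKM in DF and 1978 to 3483 FPKM in DP. DF also held 1409 to 1416 FPKM of the melanocyte genes, and G-DP 1217 to 1241 FPKM. The test took genes that reached 1 FPKM in 2 or more libraries, which kept 15052 genes and 77 of the 79 respiratory chain genes. Cox6a2 and Cox8c were not tested. A gene was called at a Benjamini-Hochberg adjusted p under 0.05 in limma, and changes are differences of log2(FPKM + 1).

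The promoters of 3 genes with large differences between epithelium and mesenchyme are shown first, because each carries a short motif known from mammalian respiratory genes. RefSeq promoters (build GRCm38.p6, 250 bases before to 50 after the start site) were given for 67 of the 79 genes, and all were searched on both strands. The motifs are in capitals and the rest in lower case. Ndufs6 encodes an accessory subunit of complex I, and its promoter is chr13:73328433-73328732 on the minus strand with the YY1 core AAGATGGCG. Atp5k encodes subunit e of the ATP synthase, and its promoter is chr5:108434350-108434649 on the minus strand with the NRF1 core GCATGCGC on each strand, the 2 matches overlapping. Uqcr11 encodes a small subunit of complex III, and its promoter is chr10:80406772-80407071 on the minus strand with the ETS core CCGGAAGT and, nearer the start site, the NRF1 core.
Ndufs6: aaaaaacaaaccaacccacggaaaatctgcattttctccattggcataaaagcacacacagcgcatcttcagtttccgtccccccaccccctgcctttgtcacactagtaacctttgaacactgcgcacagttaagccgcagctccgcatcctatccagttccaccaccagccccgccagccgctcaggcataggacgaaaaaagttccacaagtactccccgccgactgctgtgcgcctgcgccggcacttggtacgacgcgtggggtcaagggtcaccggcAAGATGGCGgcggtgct
Atp5k: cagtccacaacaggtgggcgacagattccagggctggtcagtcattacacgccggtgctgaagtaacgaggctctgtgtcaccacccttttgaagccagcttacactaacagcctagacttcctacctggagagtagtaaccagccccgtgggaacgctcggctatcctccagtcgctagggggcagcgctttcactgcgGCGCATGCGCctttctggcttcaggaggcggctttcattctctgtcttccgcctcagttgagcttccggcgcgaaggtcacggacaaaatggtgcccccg
Uqcr11: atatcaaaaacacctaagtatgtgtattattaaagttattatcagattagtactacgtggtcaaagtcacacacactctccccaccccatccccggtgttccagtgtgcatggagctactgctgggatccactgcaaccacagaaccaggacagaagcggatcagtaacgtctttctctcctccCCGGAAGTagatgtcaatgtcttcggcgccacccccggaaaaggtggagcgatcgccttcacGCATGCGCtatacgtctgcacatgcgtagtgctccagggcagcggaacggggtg

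The YY1 core began at base 34 after the start site of Ndufs6, and the ETS core at position -66 from that of Uqcr11. The NRF1 core began at positions -50 and -48 from the start site of Atp5k and -4 from that of Uqcr11. A gene was counted if any of its promoters matched, and the same was done for the 17492 coding genes of the RefSeq table. Of the 67 genes, 7 held the YY1 core (10.4%, against 2.14% of coding genes), 10 held the NRF1 core (14.9%, against 3.94%) and 5 held the ETS core (7.46%, against 5.69%). Over all 32851 single promoters of this length the shares were 1.40%, 2.71% and 3.89%. The YY1 core stood in Atp5j, Atp5j2, Ndufa9, Ndufc1, Ndufs4, Ndufs6 and Ndufs7. The NRF1 core stood in Atp5g2, Atp5k, Atp5l, Cox6a1, Ndufa6, Ndufa8, Ndufa11, Sdhb, Uqcr11 and Uqcrc1, and the ETS core in Atp5h, Cox8a, Ndufs3, Uqcr11 and Uqcrh. Uqcr11 was the 1 gene of this set with more than 1 of these 3 cores. The letters CCAAT stood in 30 genes (44.8%, against 42.3% of coding genes and 37.4% of single promoters) and TATAAA in 7 (10.4%, against 14.8% and 13.6%). A match describes the letters only.

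Most of the 79 genes were expressed in every population: 62 had at least 10 FPKM in each of the 28 libraries, and 5 were listed at 0 in at least 1 library. The most abundant, as a mean over the 14 populations, were Atp5b, the catalytic beta subunit of the ATP synthase, with 1029 FPKM and Cox7c, a small subunit of complex IV, with 800.0 FPKM. Together they made up 17.7% to 27.1% of the summed FPKM of the 79 genes in a library. The next in the ATP synthase was Atp5h, subunit d of the peripheral stalk, with 273 FPKM, and the next in complex IV was Cox6a1, the widely expressed isoform of subunit 6a, with 263 FPKM. In complex III, Uqcrh, the hinge protein, led with 157 FPKM, followed by the small subunit Uqcr10 with 110.3 FPKM. Complex I was led by its accessory subunits Ndufa12 (139 FPKM) and Ndufb9 (112 FPKM), and complex II by its membrane anchors Sdhc (64.5 FPKM) and Sdhd (57.5 FPKM).

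The summed level of the 79 genes was high in melanocytes and in the epithelial sorts of the K14-H2BGFP line, and low in every papilla sort. The sums were 14669 and 9942 FPKM in Mc, 11943 and 11872 FPKM in Epi, and 13200 and 9642 FPKM in Mx. They were 10633 and 8356 FPKM in ORS, 10185 and 8756 FPKM in TAC, and 10284 and 6985 FPKM in Neg. DF had 7847 and 5597 FPKM, and DP had 4908 and 5130.3 FPKM. The ranges of Mc, Mx, ORS, TAC and Neg thus overlapped, both Epi libraries lay within the range of Mc, and DP lay below all others of this line. HF-SC, an epithelial sort of another line, had 6747 and 6300.0 FPKM, within the range of DF, against 8821 and 9607 FPKM in HF-ORS. The 10 libraries of the 5 papilla sorts lay between 4110.3 and 5904 FPKM, a range that also held 1 of the DF libraries.

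**Figure D1:**
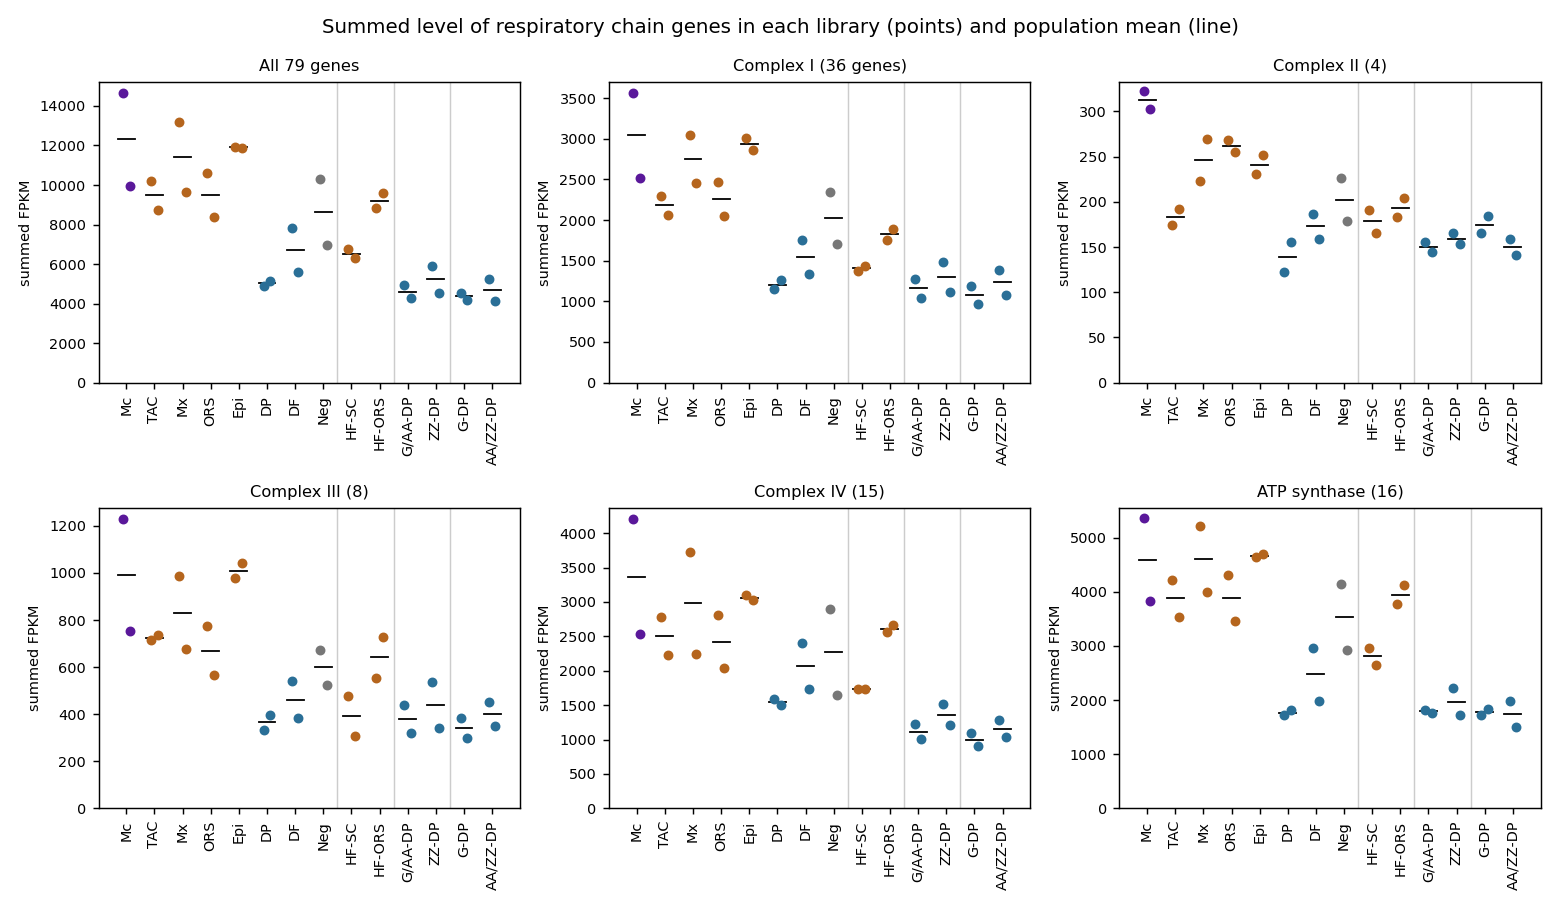
Summed FPKM of all 79 genes and of each complex (vertical axes, from 0) in the 14 sorted populations (horizontal axes). Each point is a library and each line the mean of the 2 libraries of a population, in brown for epithelial sorts, blue for mesenchymal sorts, purple for Mc and grey for Neg. Thin vertical lines separate the 4 mouse lines, and the DP libraries (4908 and 5130.3 FPKM over all genes) sit below the other populations of their line.

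The ATP synthase took the largest share of the summed FPKM in every library, at 35.0% to 44.0%. The share was 21.6% to 32.4% for complex IV, 19.7% to 26.4% for complex I, 4.89% to 9.08% for complex III and 1.69% to 4.39% for complex II. Mc had the highest mean among the 8 populations sorted from K14-H2BGFP mice for 29 of the 74 genes that averaged 5 FPKM or more, Epi for 24 and Mx for 17. DP had the lowest for 58 and DF for 10. A test over those 8 populations (limma, moderated F) called 40 of the 77 genes tested, close to the 48.9% called over all genes, so that the count does not set them apart. The called genes were 17 of 36 in complex I, 2 of 4 in complex II, 5 of 8 in complex III, 4 of 13 tested in complex IV and 12 of 16 in the ATP synthase. Without DP replicate 1 the count was 25. Bulk values do not separate fewer cells of a type from less RNA per cell: the 2 cannot be told apart.

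**Figure D2:**
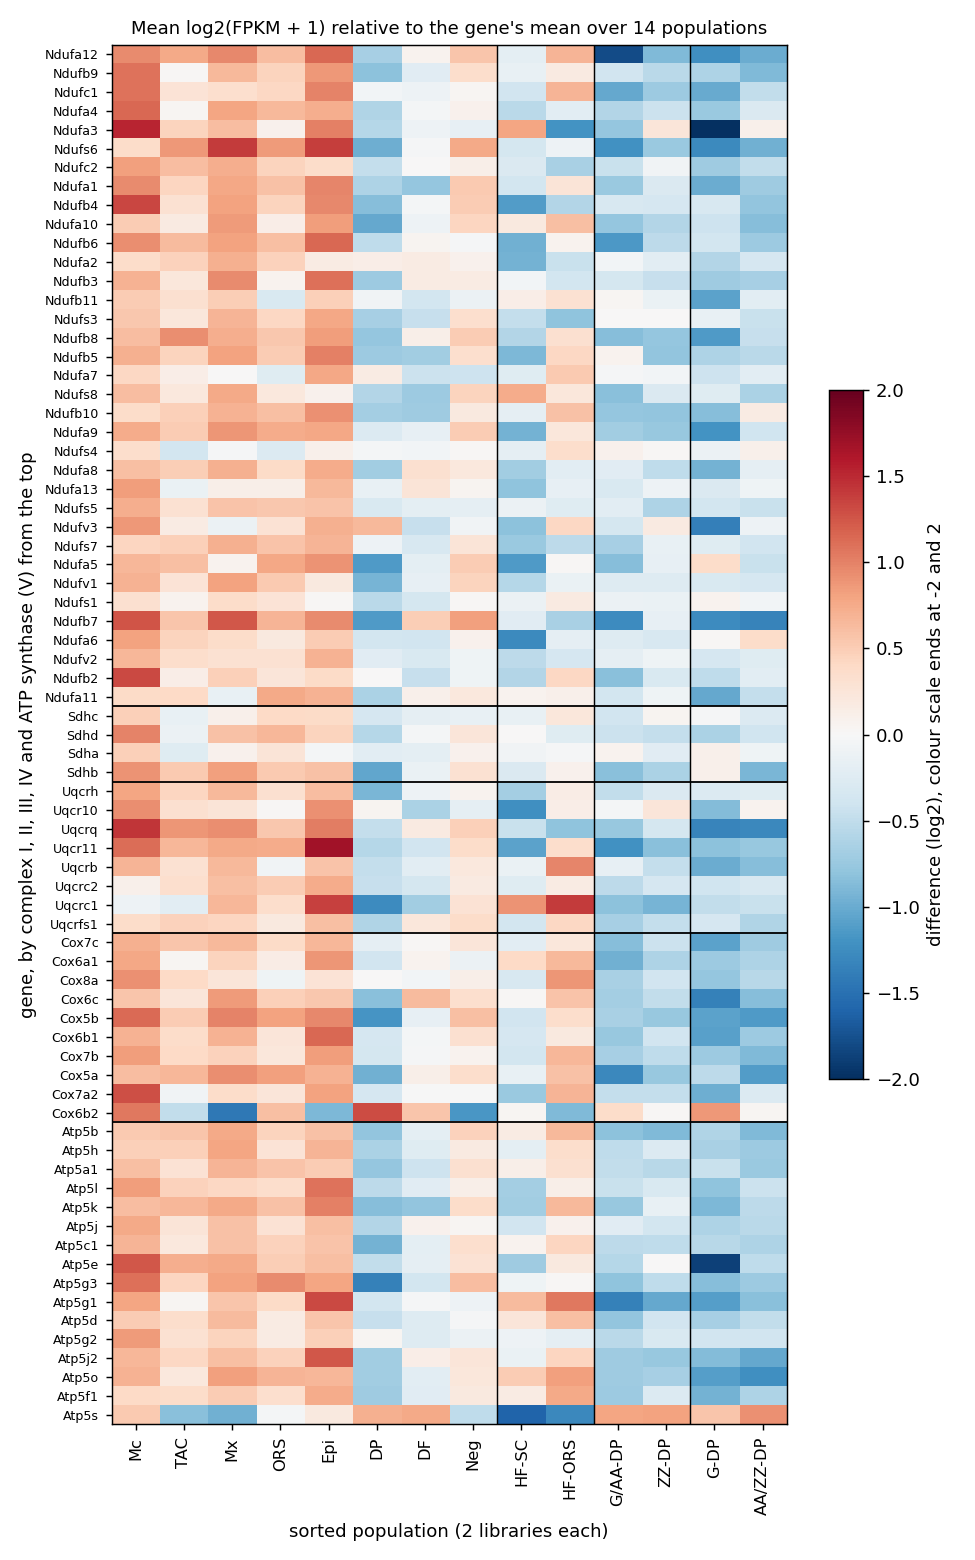
Mean log2(FPKM + 1) of 73 genes (rows, in the order complex I, II, III, IV and ATP synthase from the top, divided by black lines) in the 14 populations (columns), as the difference from the gene's own mean over the 14. Red is higher and blue lower, with the colour scale ending at -2 and 2 on the log2 scale. Most rows are red in Mc and the 4 epithelial columns and blue in DP and in the 4 other papilla columns on the right, while Cox6b2 and Atp5s run otherwise.

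Genes of all 5 complexes were higher in epithelium than in mesenchyme. Taking Epi, ORS, Mx and TAC against DP and DF, 55 of the 77 genes were higher in epithelium and 2 lower, where 44.1% of all genes tested were called (22.3% higher and 21.8% lower). The median change of the 77 genes was 0.82 on the log2 scale, and that of all 15052 genes was 0.05. The changes of the 55 genes lay between 0.45 and 1.63. With a change of at least 1 also required, 24 were higher and 2 lower, where 26% of all genes were called. For 24 genes every epithelial library lay above every mesenchymal one, where 8.58% of all genes did so. These counts include 27 of the 79 genes whose exons overlap another gene in the GENCODE annotation, and strand was not stated.

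In complex I, 24 of 36 genes were higher and none lower, with a median change of 0.87. Ndufs6 (chr13:73319876-73328482, minus strand), the gene with the first promoter above, changed most. It had 99.6 to 186 FPKM in the 8 epithelial libraries, with a median of 153 FPKM, against 36.3 and 29.7 FPKM in DP and 82.2 and 50.7 FPKM in DF. Every epithelial library was above every mesenchymal one, and the change was 1.63 ± 0.21 (SE, limma adjusted p = 2.07e-06). Its exons overlap those of Mrpl36 on the opposite strand. Ndufs4, another accessory subunit, chosen here after its values were seen, did not share this difference: it had 31.2 ± 6.56 FPKM in epithelium and 33.1 ± 5.34 FPKM in mesenchyme (SD, n = 8 and 4), a change of -0.09 ± 0.21 (SE). Ndufa3, which varied most across the 14 populations, had 105 ± 27.2 FPKM in epithelium and 60.8 ± 30.9 FPKM in mesenchyme and was not called (limma adjusted p = 0.166).

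In complex II, 3 of 4 genes were higher in epithelium. Sdhb, the iron-sulfur subunit, had 36.1 to 58.3 FPKM in epithelium with a median of 37.9 FPKM, against 13.3 and 11.1 FPKM in DP and 26.5 and 21.2 FPKM in DF. The groups did not overlap and the change was 1.20 ± 0.22 (SE, limma adjusted p = 0.000167). Sdha, the flavoprotein that binds succinate, averaged 46.8 ± 7.26 FPKM in epithelium and 39.7 ± 2.52 FPKM in mesenchyme (SD), overlapped, and was not called (change 0.22 ± 0.14 SE). The anchors Sdhc and Sdhd were higher by 0.45 and 0.70, and the Sdhc call was lost in 7 of 21 alternatives.

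Of the complex III genes, all 8 were higher in epithelium, with a median change of 0.97. Uqcr11, whose promoter is shown above, had 58.9 to 164 FPKM in epithelium with a median of 88.8 FPKM, against 28.6 and 34.6 FPKM in DP and 70.3 and 18.2 FPKM in DF. The higher DF library reached into the epithelial range, and the change was 1.44 ± 0.37 (SE, limma adjusted p = 0.00317). Uqcrq, a small subunit, and Uqcrh were higher by 0.99 and 1.01, and Uqcr10 by 0.68. The Uqcrh call was kept in all 21 alternatives, while that of Uqcrq was lost in 11 and that of Uqcr10 in 9, equal sums and quantile normalization among them. The largest change in this complex was that of Uqcrc1, core protein 1, at 1.52, with 57.1 ± 28.7 FPKM in epithelium and 18.8 ± 9.32 FPKM in mesenchyme (SD).

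Complex IV was the most mixed: of 13 genes tested 6 were higher, 1 was lower and 6 were not called, with a median change of 0.54. Cox5b, a nuclear subunit of the complex found in all tissues, had 172 to 329 FPKM in epithelium with a median of 244 FPKM, against 55.5 and 64.1 FPKM in DP and 112 and 133 FPKM in DF. No library overlapped, and the change was 1.48 ± 0.26 (SE, limma adjusted p = 0.00012). The abundant Cox7c had 1098 ± 216 FPKM in epithelium and 704 ± 143 FPKM in mesenchyme (SD), a change of 0.64 ± 0.21 (SE, limma adjusted p = 0.0162) that turned to -0.07 under quantile normalization (limma adjusted p = 0.750). Cox6a1 was not called (0.54 ± 0.27 SE).

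In the ATP synthase 14 of 16 genes were higher, with a median change of 0.97. Atp5g3 (chr2:73908447-73912464), 1 of 3 genes whose products mature to the same subunit c of the membrane rotor, had 160.0 to 259 FPKM in epithelium with a median of 225 FPKM, against 44.2 and 56.6 FPKM in DP and 127 and 78.5 FPKM in DF. Atp5k had 212 to 364 FPKM in epithelium with a median of 247 FPKM, against 53.3 and 127 FPKM in DP and 130 and 57.9 FPKM in DF. Neither gene overlapped between the groups, and the changes were 1.60 ± 0.18 and 1.58 ± 0.29 (SE, limma adjusted p = 3.55e-07 and 0.000151). Atp5b was higher by 1.08, Atp5h by 0.99 and Atp5e, the epsilon subunit, by 0.98. The Atp5h call was kept in all 21 alternatives and the Atp5e call was lost in 11, among them both scalings and 7 single libraries left out. The 1 gene lower in epithelium was Atp5s, chosen here after its values were seen, which RefSeq now lists as Dmac2l. It had 1.57 to 7.24 FPKM in epithelium with a median of 4.10 FPKM, against 7.96 and 10.9 FPKM in DP and 11.4 and 8.16 FPKM in DF. All epithelial libraries lay below all mesenchymal ones, as they did for 10.6% of all genes, and the change was -1.15 ± 0.34 (SE, limma adjusted p = 0.00858).

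**Figure D3:**
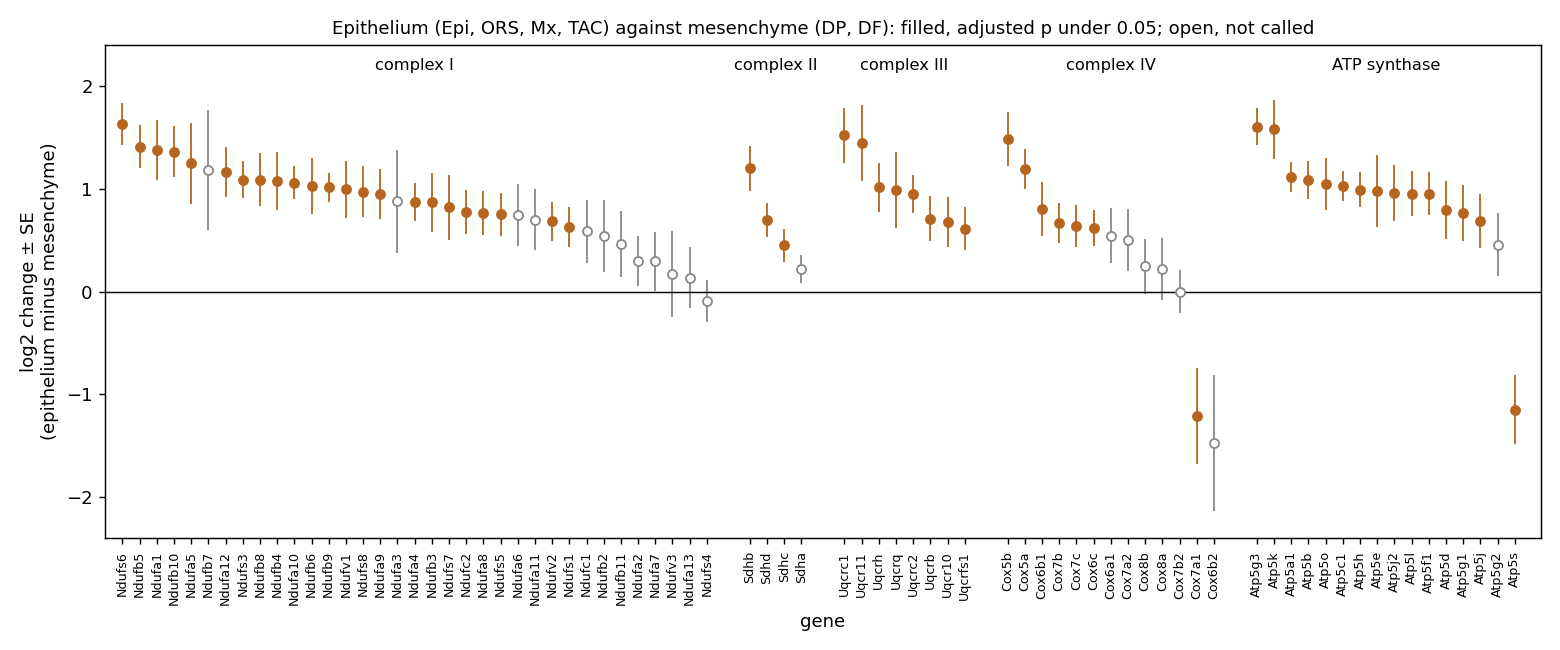
Change in log2(FPKM + 1) of each of 76 genes (horizontal axis, grouped by complex) for the 8 epithelial libraries minus the 4 mesenchymal ones, with bars of 1 SE. Filled points are called and open points are not, and 54 filled points lie above 0 while Cox7a1 and Atp5s lie below it. Ndufs6 (1.63), Atp5g3 (1.60) and Atp5k (1.58) stand highest.

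Scaling moved the size of this difference. The FPKM sum differed between libraries, and with all libraries set to the same sum the median of all genes moved to -0.19 and that of the respiratory chain genes to 0.49. The distance between the medians was 0.68 then, against 0.77 as deposited and 0.50 after quantile normalization. The count was 35 genes (32 higher and 3 lower) at equal sums, and the share of all calls that were higher in epithelium was 32.2%, against 50.6% as deposited. Many of these transcripts are short: 39 of the 79 genes have a longest GENCODE transcript under 1000 bases. The median change was 0.77 for the 37 short genes tested and 0.95 for the 40 longer ones, against 0.41 for 588 other short genes and 0.05 for 12634 other long genes.

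A restricted isoform did not share the higher level in epithelium. Cox6b2, known as the testis isoform of subunit 6b of complex IV (chr7:4751792-4753094, minus strand), was expressed in all 28 libraries, from 2.41 to 93.9 FPKM. It had 61.8 and 74.4 FPKM in DP, its highest population mean, 63.3 and 39.2 FPKM in G-DP, 74.7 and 43.5 FPKM in Mc, and 11.1 and 17.7 FPKM in Epi. As a share of the summed Cox6b1 and Cox6b2 level it made up 37.1% and 42.2% in DP, 50.4% and 39.7% in G-DP and 3.72% and 5.67% in Epi. Replicates differed widely elsewhere: HF-SC had 7.66 and 93.9 FPKM and HF-ORS had 3.49 and 50.5 FPKM. Epithelium averaged 23.7 ± 16.9 FPKM and mesenchyme 56.8 ± 23.0 FPKM (SD), which overlapped and was not called (change -1.47 ± 0.66 SE, limma adjusted p = 0.0771).

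The other restricted isoforms were near or at 0. Cox7a1, the isoform of heart and skeletal muscle, was listed at 0 in 20 of 28 libraries and reached 6.54 FPKM in 1 DP library and 4.80 FPKM in 1 DF library. It was lower in epithelium by that test (0.17 ± 0.48 FPKM, against 2.83 ± 3.35 FPKM in mesenchyme, SD, limma adjusted p = 0.0407), a call lost in 13 of 20 alternatives, among them a pseudocount of 0.1 and no filter. Skeletal muscle markers (7 genes) summed to 0.37 to 2.27 FPKM in DP and 21.6 to 47.2 FPKM in DF, and their part in the result was not tested. Cox8b, a muscle and brown fat isoform, was listed at 0 in 25 libraries, Cox7b2 in 24, the muscle isoform Cox6a2 in 27 and the testis isoform Cox8c in all 28. An exact 0 in FPKM can also be a failed estimate.

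The 3 subunit c genes were used in different proportions. Their shares of the summed Atp5g1, Atp5g2 and Atp5g3 level were 35.8%, 47.8% and 16.4% in 1 DP library and 29.9%, 42.8% and 27.3% in the other. In Epi they were 42.4%, 20.6% and 36.9% in 1 library and 38.4%, 26.2% and 35.4% in the other. Atp5g2 thus led in both DP libraries and Atp5g1 in both Epi libraries. In each of the other papilla sorts Atp5g2 led in replicate 1 and Atp5g3 in replicate 2. Between epithelium and mesenchyme Atp5g1 was higher by 0.76 ± 0.27 (SE, limma adjusted p = 0.0278), a call lost in 8 of 21 alternatives, and Atp5g2 was not called (0.45 ± 0.31 SE). The 3 genes have distinct transcripts, but many chain genes have processed pseudogene copies, and how the authors' counting divided such reads is not given.

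Of 10 further chain genes outside the naming rule, 6 were higher and 2 lower in epithelium. Both lower ones were paralogs. Cox4i2, the second isoform of subunit 4 and known from lung and from cells in low oxygen, had 17.99 and 14.1 FPKM in DP and 26.7 and 10.5 FPKM in DF. No epithelial library exceeded 1.83 FPKM and the median was 0, a change of -3.78 ± 0.42 (SE, limma adjusted p = 3.41e-07). Its common counterpart Cox4i1 ran the other way, with 277 ± 54.0 FPKM in epithelium and 172 ± 37.3 FPKM in mesenchyme (SD, change 0.69 ± 0.25 SE, limma adjusted p = 0.0326). Ndufa4l2, a paralog of Ndufa4 known to be induced in low oxygen, had 14.7 and 22.7 FPKM in Epi and was listed at 0 in both libraries of ORS, Mx and Mc. ORS was called lower than Epi (limma adjusted p = 2.48e-05). In mesenchyme it had 12.1 and 7.02 FPKM in DP and 19.3 and 9.99 FPKM in DF.

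**Figure D4:**
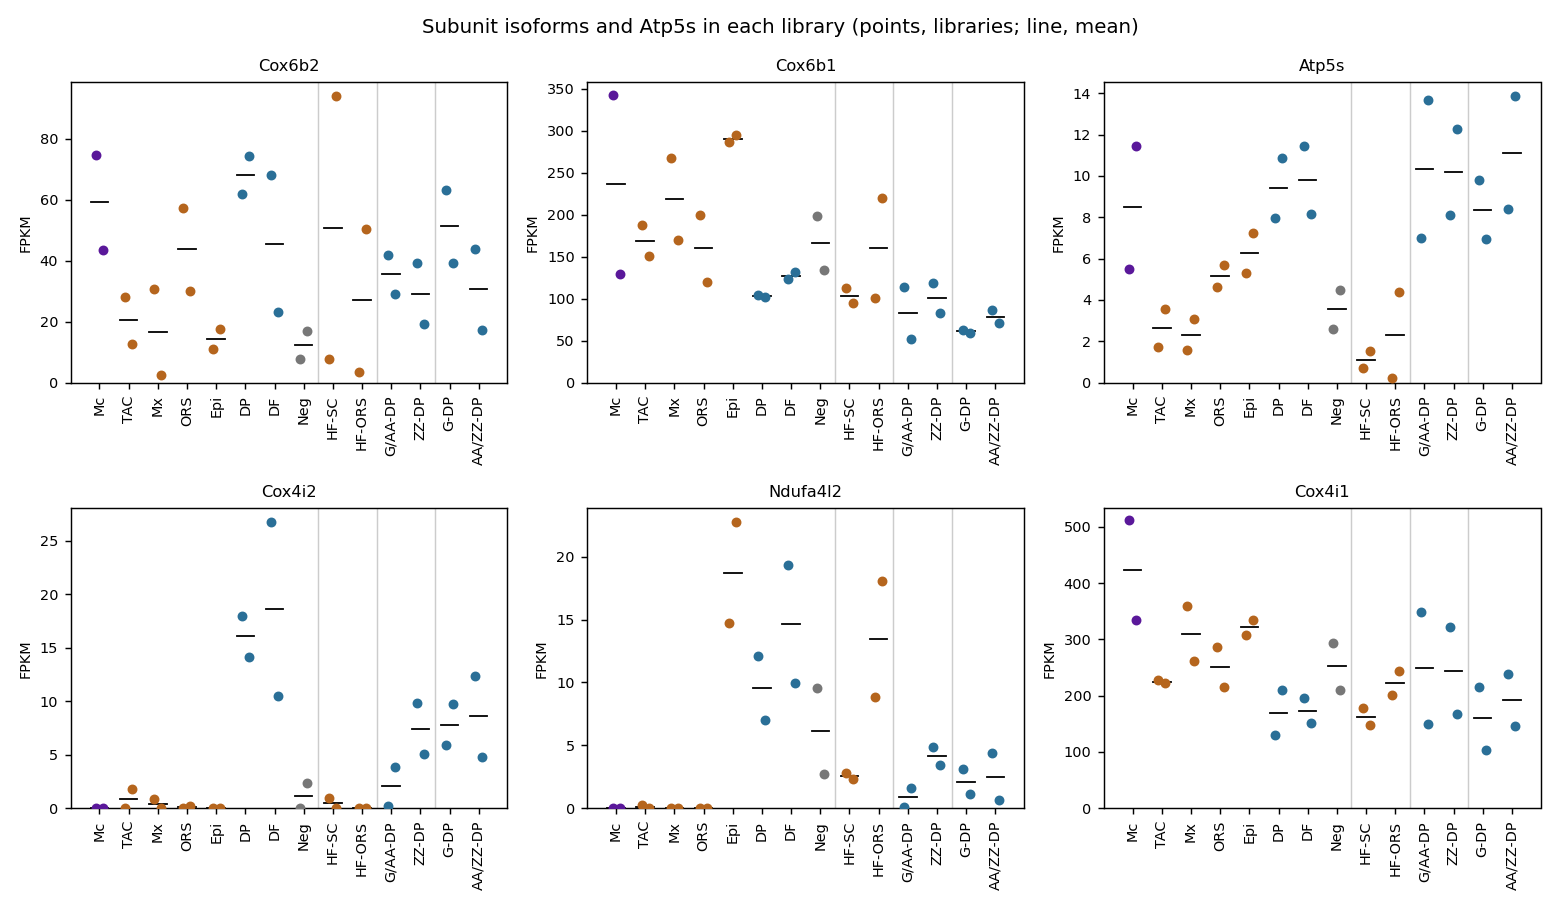
FPKM of Cox6b2, Cox6b1, Atp5s, Cox4i2, Ndufa4l2 and Cox4i1 (1 panel each, vertical axes from 0 on different scales) in the 14 populations (horizontal axes). Points are libraries, lines are population means and thin vertical lines separate the mouse lines. Cox4i2 lies at or below 1.83 FPKM in every epithelial library of the K14-H2BGFP line and at 10.5 FPKM or above in DP and DF, and the 2 HF-SC libraries of Cox6b2 lie at 7.66 and 93.9 FPKM.

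Of related mitochondrial lists, read beside the 22.3% of all genes higher in epithelium and the 21.8% lower, 12 of 14 carrier and import genes were higher and none lower (median 0.86). Of 17 citric acid cycle genes tested, 9 were higher and 1 lower (median 0.49). Cs, citrate synthase, had 179 ± 39.2 FPKM in epithelium and 68.0 ± 38.3 FPKM in mesenchyme (SD, change 1.49 ± 0.15 SE, limma adjusted p = 1.27e-07). Slc25a5, an ADP/ATP carrier, had 315 ± 58.2 FPKM in epithelium and 105 ± 69.2 FPKM in mesenchyme (SD, change 1.75 ± 0.17 SE, limma adjusted p = 7.80e-08). Of 35 assembly factors 9 were higher, close to the share of all genes, and none lower (median 0.47). Among 15 regulators of mitochondrial genes 7 were higher and 1 lower (median 0.43). Myc, a growth regulator, was higher by 2.12 ± 0.23 against DP and DF together. Both DF libraries lay within the epithelial range of Myc, however, and only the DP libraries lay below it. Ppargc1a, a coactivator known to promote mitochondrial biogenesis, was lower (-1.44), at 0.39 ± 0.28 FPKM in epithelium and 2.77 ± 0.76 FPKM in mesenchyme (SD). Mitochondrially encoded genes were not analysed here.

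A minority of these genes passed the test in melanocytes. Against Epi, ORS, Mx, TAC, DP and DF together, 9 of 77 genes were higher in Mc and none lower, where 27.3% of all genes were called (13% higher), so the count is close to the background. The median change was 0.48, and -0.07 over all genes. Ndufb2, a complex I accessory subunit of the membrane arm, had the largest called change, with 53.7 and 29.3 FPKM in Mc, against 8.09 to 27.8 FPKM in the 12 other libraries with a median of 16.9 FPKM (change 1.19 ± 0.43 SE, limma adjusted p = 0.0460). This call was lost in 15 of 22 alternatives, with adjusted p up to 0.442, while those of Ndufb9 and Sdhd were kept in all 22. Cox7a2, the widely expressed isoform of subunit 7a, had 146 and 117 FPKM in Mc, against 24.1 to 110.0 FPKM with a median of 57.5 FPKM (1.13 ± 0.37 SE, limma adjusted p = 0.0294). Both Mc libraries of these 2 genes lay above the 12 others, as did those of Sdhd and Ndufb9. How many of all genes separate in this way was not counted. Sdhd had 109 and 107 FPKM in Mc, against 28.6 to 90.8 FPKM with a median of 61.1 FPKM (0.84 ± 0.20 SE, limma adjusted p = 0.00352). Ndufb4, also of the membrane arm, was higher by 1.06 ± 0.35 and overlapped. Exons of Ndufb2 overlap 3 other genes, among them Braf.

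The 2 Mc libraries differed: replicate 1 exceeded replicate 2 in 69 of the 77 genes, by a median of 0.59 on the log2 scale, while the median over all genes was 0. Without replicate 1 the count was 3 and the median 0.20, and without replicate 2 they were 5 and 0.73. With a change of at least 1 also required the count was 3, where 21.2% of all genes were called. With the replicate number as a block the count was 21, where 35% of all genes were called. Against the 4 epithelial populations alone, a comparison added after the data were seen, 2 genes were higher and 1 lower. Of the further lists, 4 of 35 assembly factors were higher and 1 lower, and 2 of 15 regulators were higher and 1 lower, close to the 13% of all genes that were higher in Mc. Of 17 citric acid cycle genes 4 were higher, of 14 carrier and import genes 3 were higher, and of the 10 further chain genes 2 were lower and none higher. Ppargc1a had 14.6 and 11.7 FPKM in Mc, against 0.055 to 3.43 FPKM in the 12 other libraries (2.89 ± 0.29 SE, limma adjusted p = 2.25e-07). Slc25a4, the ADP/ATP carrier known from heart and muscle, had 549.6 and 432 FPKM in Mc, against 87.2 to 197 FPKM (1.88 ± 0.23 SE, limma adjusted p = 1.79e-06). Ogdh, a subunit of the oxoglutarate dehydrogenase complex, had 101 and 85.1 FPKM in Mc, against 23.2 to 36.6 FPKM (1.64 ± 0.16 SE, limma adjusted p = 1.81e-07). None of these 3 genes overlapped between Mc and the 12 other libraries, which was not counted over all genes.

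Papilla cells were lower than fibroblasts for a few genes. Of 77 genes 4 were lower in DP than in DF and none higher, where 7% of all genes were called (4.44% lower), again close to the background. The median change was -0.33, and 0.01 over all genes. Cox6c, a small subunit of complex IV, had 106 and 123 FPKM in DP, against 290.2 and 350.5 FPKM in DF (change -1.47 ± 0.29 SE, limma adjusted p = 0.00238). Cox5a, which lies beside Cox5b in the complex, had 29.1 and 25.004 FPKM in DP, against 68.2 and 49.0 FPKM in DF (-1.07 ± 0.32 SE, limma adjusted p = 0.0441). The other 2 were Atp5g3 (-0.98) and Ndufa10 (-0.92), a complex I accessory subunit. The Cox6c call was kept in all 11 alternatives, and those of Cox5a and Atp5g3 were each lost in 5. All 4 had both DP libraries below both DF libraries, which was so for 32 of the 77 genes and 21% of all genes.

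With a change of at least 1 also required the count was 2 in DP against DF, where 6.69% of all genes were. With the replicate number as a block the count was 8, where 11.8% of all genes were called. This comparison rests on few libraries, and markers of other cells differed between the sorts. The count was 1 without DF replicate 1 or without DP replicate 1, and 2 without DP replicate 2. DF replicate 1 exceeded replicate 2 by a median of 0.53, and DP replicate 1 lay 0.21 below replicate 2. Melanocyte markers (9 genes, none at 0 in DF) summed to 25.9 to 31.6 FPKM in DP and 1409 to 1416 FPKM in DF. Keratinocyte markers (7 genes, none at 0) summed to 62.2 to 99.2 FPKM in DP and 241 to 837 FPKM in DF, and smooth muscle and pericyte markers (6 genes, none at 0) to 58.3 to 64.1 FPKM in DP and 613 to 619 FPKM in DF. Matrix markers (6 genes, none at 0) summed to 137.7 to 150.9 FPKM in DP, and to 507.1 and 154.9 FPKM in DF replicates 1 and 2. Fibroblast markers (8 genes, none at 0) overlapped, at 1978 to 3483 FPKM in DP and 2652 to 6043 FPKM in DF. The part of these lists in the result was not tested. Outside the chain, 1 of 15 regulators, 1 of 17 citric acid cycle genes and 1 of 14 carrier and import genes were lower in DP. None was higher, and 4.44% of all genes were lower, so these counts are close to the background. The regulator was Myc, with 0.56 and 3.12 FPKM in DP, against 33.9 and 15.5 FPKM in DF (-3.24 ± 0.38 SE, limma adjusted p = 2.03e-05). The others were Cs (-1.02) and Slc25a5 (-1.12). No assembly factor and none of the 10 further chain genes was called in DP against DF by limma, where 3 and 1 of them had an unadjusted p under 0.05.

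Within the epithelium of the K14-H2BGFP line, none of the 77 genes was called in the fit without a replicate block. In ORS against Epi none of 77 passed, with 10.2% of all genes called, 9 respiratory chain genes at an unadjusted p under 0.05 and a median change of -0.30. The medians by complex were -0.37 for complex I, 0.11 for complex II, -0.56 for complex III, -0.16 for complex IV and -0.31 for the ATP synthase. At equal FPKM sums the median of these genes was -0.03 and that of all genes 0.18, and the share of all calls that were higher in ORS was 68.3%, against 54.4% as deposited. With the replicate number as a block 5 of the 77 genes were called in ORS against Epi, where 14.8% of all genes were. In Mx against ORS none passed (3.93% of all genes called, 2 genes at an unadjusted p under 0.05, median 0.20). In TAC against Mx none passed either (1.28%, 5 genes, median -0.26). For example, Sdhd had 41.2 and 58.6 FPKM in TAC, against 74.2 and 88.5 FPKM in Mx (change -0.71 ± 0.27 SE, not called). Leaving out ORS replicate 2 gave 1 gene higher in ORS than in Epi and 1 lower in Mx than in ORS.

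In stem cell precursors against the remaining sheath 1 gene was lower and none higher. Ndufb5 (chr3:32737057-32751559), a complex I accessory subunit of the membrane arm, had 28.3 and 14.9 FPKM in HF-SC, against 53.1 and 52.0 FPKM in HF-ORS (change -1.31 ± 0.34 SE, limma adjusted p = 0.0305). Its exons overlap those of Mrpl47 on the opposite strand. Over all genes 4.5% were called and 1.79% were lower, so 1 of 77 is no more than the background. The median change was -0.48, and 0 over all genes, and 19 genes had an unadjusted p under 0.05. Both HF-SC libraries lay below both HF-ORS libraries in 39 of 77 genes, against 19.9% of all genes. By complex the median was lowest in complex III at -0.81, for example in Uqcr10, with 57.7 and 31.2 FPKM in HF-SC, against 100.1 and 120.2 FPKM in HF-ORS (-1.35 ± 0.40 SE, limma adjusted p = 0.0589). Uqcr11 had 22.5 and 21.7 FPKM in HF-SC, against 44.9 and 81.8 FPKM in HF-ORS (-1.41 ± 0.60 SE, limma adjusted p = 0.223). With the replicate number as a block 8 of the 77 genes were called, where 9.1% of all genes were.

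The count in this comparison was 0 without HF-SC replicate 2 or HF-ORS replicate 1, at equal sums, and after quantile normalization, and 5 without HF-SC replicate 1. At equal sums the median of these genes was -0.20 and that of all genes 0.14, and 78.9% of all calls were higher in HF-SC, against 60.3% as deposited. Keratinocyte markers (7 genes, none at 0) summed to 7765 to 9643 FPKM in HF-SC and 14376 to 19597 FPKM in HF-ORS. Suprabasal markers (4 genes, none at 0), of differentiating keratinocytes, summed to 376 to 485 FPKM in HF-SC and 1796 to 2874 FPKM in HF-ORS. The part of both lists in the result was not tested. Of 35 assembly factors, 1 was higher and 1 lower in HF-SC, close to the 4.5% of all genes called. Both are named for complex IV. Cox18 had 16.1 and 12.7 FPKM in HF-SC, against 3.51 and 3.52 FPKM in HF-ORS (1.76 ± 0.39 SE, limma adjusted p = 0.0102). Cox19 had 3.59 and 2.81 FPKM in HF-SC, against 18.3 and 21.1 FPKM in HF-ORS (-2.30 ± 0.43 SE, limma adjusted p = 0.00276).

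Papillae of different follicle types did not differ detectably in these genes. In G/AA-DP against ZZ-DP none of 77 was called, where 0.00664% of all genes were, with 2 at an unadjusted p under 0.05 and a median of -0.18. Melanocyte markers (9 genes, none at 0) summed to 61.9 to 120.2 FPKM in G/AA-DP, and to 34.3 FPKM in replicate 1 and 759.6 FPKM in replicate 2 of ZZ-DP. Fibroblast markers (8 genes, none at 0) summed to 787 to 989 FPKM in G/AA-DP, and to 1021 and 2821 FPKM in ZZ-DP replicates 1 and 2. The part of these cells in the result was not tested. Without ZZ-DP replicate 2 none of 77 was called either, with a median of -0.34. In G-DP against AA/ZZ-DP none was called, where 0.505% of all genes were, with 6 at an unadjusted p under 0.05 and a median of -0.11. Without G-DP replicate 1 the second count was 2, both lower. The widest gap was that of Ndufa3, with 40.6 and 6.14 FPKM in G-DP, against 68.8 and 80.5 FPKM in AA/ZZ-DP (-2.13 ± 0.81 SE, limma adjusted p = 0.447), and its exons overlap those of Tfpt. The melanocyte markers summed to 1217 to 1241 FPKM in G-DP and 58.2 to 73.1 FPKM in AA/ZZ-DP, and their part in these values was not tested.

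**Figure D5:**
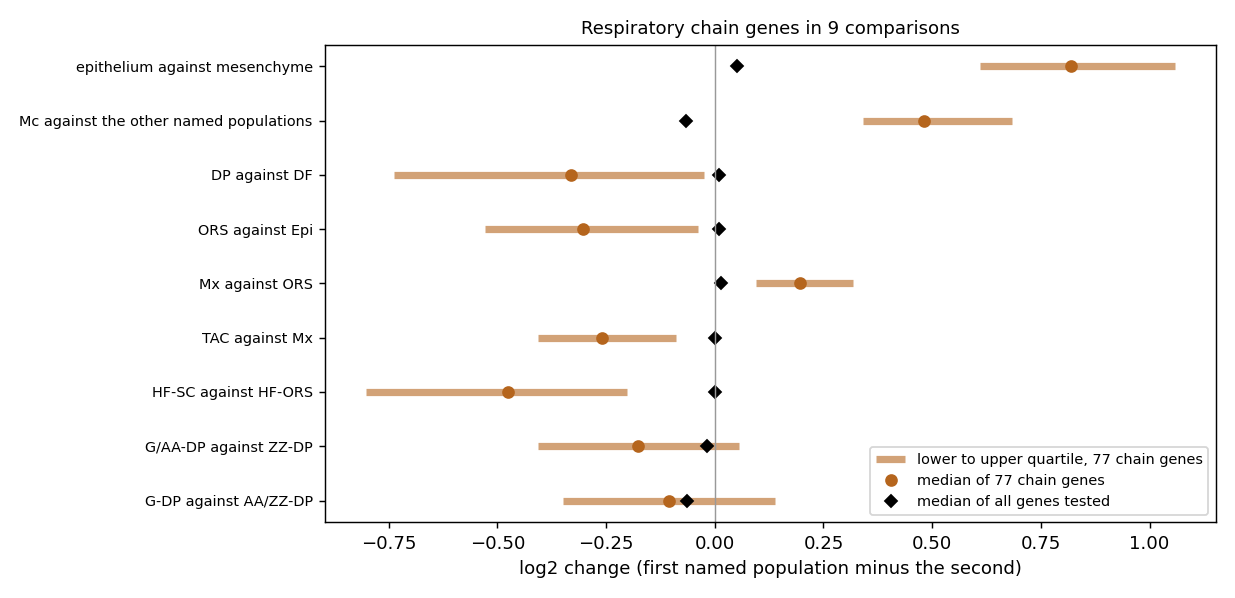
Median change in log2(FPKM + 1) of the 77 respiratory chain genes (brown points) with their lower to upper quartile (brown bars), beside the median of all 15052 genes tested (black diamonds), in 9 comparisons (rows, first named population minus the second). Epithelium against mesenchyme stands farthest to the right at 0.82, and HF-SC against HF-ORS farthest to the left at -0.48.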

How the data were processed

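Each library was made from 6 ng of RNA (integrity number at least 8.8), reverse transcribed and amplified before library preparation, per the labels' protocols. The authors deposited 1 table of FPKM values for all 28 libraries. TopHat2 2.0.3, Bowtie2, Cufflinks 2.1.1 and the build mm10 are named, per the submitters' processing notes. Annotation and strand were not given in the sources used here. Of 23235 deposited rows, 220 identical ones were dropped. The 15052 genes that reached 1 FPKM in 2 or more libraries were fitted as log2(FPKM + 1) with limma 3.58.1 (R 4.3.3), 1 mean per population over all 28 libraries and an intensity trend. The spread had 14 residual degrees of freedom and 5.72 from the prior. P-values were adjusted over all genes tested (Benjamini-Hochberg). The script was tested on simulated data. In DP against DF it called 14% of 100 genes given a log2 change of 1 and 59% of 100 given a change of 2. In epithelium against mesenchyme it called 88% of 100 genes given a change of 1.5. A gene not called between 2 populations may therefore still differ. Low values did not give whole reads: in only 46 of 378 library pairs (12.2%) did the steps match to 0.06 log2 units, so depth is unknown.

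Groups came from the sample titles. Named genes were the 2 highest and the 2 most variable of each complex, the 3 largest called changes of a comparison, restricted isoforms, subunit c genes and the 2 largest called changes of each further list. Genes outside that rule were chosen after their values were seen, among them Atp5s, Cox7b2, Ndufa10, Ndufs4, Ndufs7, Sdha, Uqcrc1, Cox4i1, Cox6b1 and the genes listed by motif. Genes and lists were chosen with earlier results of these data known. Positions and promoters are those of RefSeq (GRCm38.p6), with all 79 genes matched, 2 by synonym. Alternatives were other pseudocounts, filters, scalings, a fold minimum, a replicate block and leaving out libraries. Counts and sums include 1 gene that is not reported here by name or drawn in the plots of single genes.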

Additional observations from a re-analysis of the deposited data

How the results depend on the processing

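The counts of called genes that moved over 1.5 times are given here, against 40 over the 8 populations, 57 in epithelium against mesenchyme, 9 in Mc, 4 in DP against DF and 1 in HF-SC against HF-ORS. Quantile normalization gave 18 over the 8 populations, 3 in Mc and 0 in HF-SC. Equal FPKM sums gave 20 over the 8 populations, 35 in epithelium and 0 in HF-SC. A minimum change of 1 on the log2 scale gave 26 in epithelium, 3 in Mc and 2 in DP. In DP the count was 2 with a pseudocount of 0.1 and 2 with no filter. Epithelial populations alone as the comparison for Mc gave 3, and leaving out both Epi or both DF libraries gave 47 and 53 in epithelium; these 3 were chosen after seeing the data. With a pseudocount of 5 or a filter of 5 FPKM no count moved over 1.5 times.

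Leaving out 1 library, where a lone library was assumed to vary like the others, gave counts of 25 to 40 over the 8 populations, 40 to 58 in epithelium, 3 to 11 in Mc, 1 to 4 in DP, 0 to 1 in ORS against Epi, 0 to 1 in Mx against ORS, 0 to 5 in HF-SC and 0 to 2 in G-DP, and 0 throughout in TAC and in G/AA-DP.

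With the replicate number within a mouse line as a block, the counts of members called, with the percent of all genes called in the same fit, were 58 over the 8 populations (60.7%), 63 in epithelium (51.7%), 21 in Mc (35%), 8 in DP (11.8%), 5 in ORS against Epi (14.8%) and 8 in HF-SC (7 lower; 9.1%), and 0 in the other 4 comparisons. The labels do not say what a number marks. Same-numbered libraries correlated at 0.057 to 0.275 in the K14-H2BGFP line (27 of 28 pairs over 0.1). The correlation was 0.285 in the Sox2-GFP pair, 0.283 in the Crabp1-GFP pair and 0.071 in the HF-SC and HF-ORS pair. All of these values were positive. The main fit left the number out, and whether same-numbered libraries share an effect was not tested.

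Of 33 gene results, 15 kept their direction and call in all alternatives. Over 658 values, 548 kept both, 109 lost the call and 1 reversed, Cox7c in epithelium at -0.072 after quantile normalization; the causes were not tested. Depth, which would bound low genes such as Cox7a1 and Cox8b, is unknown, and amplification from little RNA limits them further.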

Other observations

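Levels of 2 regulators varied among sorts that no comparison set side by side. Ppargc1a had 9.69 and 10.3 FPKM in G/AA-DP and 9.30 and 13.2 FPKM in ZZ-DP, both of the Sox2-GFP line. It had 3.03 and 1.44 FPKM in G-DP and 4.36 and 3.39 FPKM in AA/ZZ-DP, of the Crabp1-GFP line, and 1.68 and 3.07 FPKM in DP. Myc had 172 and 149.7 FPKM in HF-SC and 109 and 127 FPKM in HF-ORS, above its highest value of 61.9 FPKM in the epithelial libraries of the K14-H2BGFP line. These sorts come from different mouse lines, so line and population cannot be told apart and no test was made.

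Replicate 1 exceeded replicate 2 in the respiratory chain genes in most populations, while the median over all genes was near 0 in each. Replicate 1 was higher in 69 of 77 genes in Mc (median 0.59), 63 in Neg (0.47) and 62 in ORS (0.30). The counts were 61 in ZZ-DP (0.40), 59 in Mx (0.44), 57 in AA/ZZ-DP (0.39) and 54 in DF (0.53). They were 51 in G/AA-DP (0.24), 49 in TAC (0.12), 47 in G-DP (0.12) and 42 in HF-SC (0.05). Replicate 1 was lower by the median in Epi (-0.02), HF-ORS (-0.13) and DP (-0.21). The cause was not tested. Other short genes had medians of 0.17 in Neg, 0.24 in Mx and 0.05 in ORS.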
